A study of Mus musculus with 43 samples.

Results

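Transcript levels of 40 genes of the p53 network and of apoptosis were followed in mouse germ cell cultures that were wild type (WT) or lacked Stra8 (Stra8-KO, here KO), with and without all-trans retinoic acid (RA). The 40 genes were taken by gene name, and all 40 were found among the 46983 genes of the deposited table and passed the filter on low values that left 16268 genes for testing. They comprise the p53 family and its MDM inhibitors, the BCL2 family, caspases and their inhibitors, death receptors, and targets of p53 in growth arrest, stress and DNA damage signalling.

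THY1-positive testis cells of WT or Stra8-KO mice founded the cultures, which were grown in serum-free medium over STO feeders (mouse fibroblasts) with GDNF at 20 ng/ml, GFRA1 at 150 ng/ml and FGF2 at 1 ng/ml. They were used at passages 3 to 12, and the feeder cells are part of every library. For each genotype there were 7 groups, namely untreated at 0 h, the solvent DMSO (0.01%) at 4, 8 and 24 h, and RA at 4, 8 and 24 h, each with 3 replicates. The replicate names WT17, WT23 and WT25 and KO12, KO20 and KO21 recur in every condition and are called culture lines here, although it is not stated whether a line stands for 1 mouse, so the p-values measure the spread between these libraries only. The main tests did not pair libraries by line. A fit with the lines as a block is given at the end, and it called more members in most comparisons. The labels give the RA dose in a form that the files cannot check, and the dose is not stated here. Of the 42 libraries, 3 DMSO libraries at 4 h (those labelled WT23, WT25 and KO20) were in doubt and were left out of the tests, which used 39. The authors' column names remark on those of WT25 and KO20, and over 11393 genes the library labelled KO20 DMSO 4 h differed from KO20 at 24 h of RA by an SD of 0.0584, against 0.128 for the next closest pair of libraries. Stra8 itself, the RA-induced regulator of meiotic entry that was knocked out, lay between 14.10 and 14.73 in WT at 24 h of RA and between 9.47 and 9.79 in KO. In untreated and DMSO libraries outside those in doubt it was between 7.29 and 8.91 in WT and between 6.27 and 6.78 in KO. The library labelled WT23 DMSO 4 h had 11.59 and the library labelled KO20 DMSO 4 h had 9.64. Values are the log2 expression values deposited by the authors, which are already scaled between libraries, and read depth is unknown because no counts are kept.

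The transcription factor p53 is held low by MDM2, which tags it for degradation, and by MDM4, which masks its activation domain. When stress releases it, p53 acts mainly by switching on genes for cell cycle arrest (Cdkn1a), repair, its own inhibitor Mdm2, and BH3-only proteins such as PUMA (Bbc3) and NOXA (Pmaip1), which free BAX and BAK1 to open mitochondria. Released cytochrome c then assembles APAF1 and caspase 9, while the IAP proteins restrain caspases. In the testis, germ cell number is set in part by apoptosis of spermatogonia, and p53 is regulated mostly as a protein, which transcript levels do not measure.

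The sequences just upstream of the annotated transcription start are shown for 5 members that carry the results, as examples with and without a p53-type element. They were taken from RefSeq (GRCm38.p6), run from 5′ to 3′ on the strand of the gene, and cover the 250 bases before the start. Capitals mark matches to the p53 decamer, the repeat unit of the p53 response element, or to AGGTCA, the core of nuclear receptor sites, each searched on both strands.
Cdkn1a (chr17:29090729-29090978, plus strand): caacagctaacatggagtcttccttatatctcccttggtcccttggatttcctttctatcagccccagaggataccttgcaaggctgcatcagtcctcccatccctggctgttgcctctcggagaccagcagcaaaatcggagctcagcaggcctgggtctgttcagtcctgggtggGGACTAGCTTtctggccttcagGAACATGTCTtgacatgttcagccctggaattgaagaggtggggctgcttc
Trp53 (chr11:69580109-69580358, plus strand): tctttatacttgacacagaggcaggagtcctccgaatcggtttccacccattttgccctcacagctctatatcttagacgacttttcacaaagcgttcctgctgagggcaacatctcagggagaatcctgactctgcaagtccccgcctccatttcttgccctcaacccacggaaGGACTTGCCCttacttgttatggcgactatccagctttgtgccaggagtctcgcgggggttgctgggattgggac
Btg2 (chr1:134079156-134079405, minus strand): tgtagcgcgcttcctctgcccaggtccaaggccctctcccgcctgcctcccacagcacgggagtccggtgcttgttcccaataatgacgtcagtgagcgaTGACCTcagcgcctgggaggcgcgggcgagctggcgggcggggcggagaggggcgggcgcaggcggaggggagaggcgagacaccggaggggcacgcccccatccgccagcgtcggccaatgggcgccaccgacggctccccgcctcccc
Gadd45g (chr13:51846425-51846674, plus strand): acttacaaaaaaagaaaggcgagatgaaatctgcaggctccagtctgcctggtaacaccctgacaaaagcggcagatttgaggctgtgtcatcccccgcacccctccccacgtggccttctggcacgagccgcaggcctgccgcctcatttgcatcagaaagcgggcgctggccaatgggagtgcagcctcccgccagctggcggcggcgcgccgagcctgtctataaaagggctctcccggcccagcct
Sesn2 (chr4:132510457-132510706, minus strand): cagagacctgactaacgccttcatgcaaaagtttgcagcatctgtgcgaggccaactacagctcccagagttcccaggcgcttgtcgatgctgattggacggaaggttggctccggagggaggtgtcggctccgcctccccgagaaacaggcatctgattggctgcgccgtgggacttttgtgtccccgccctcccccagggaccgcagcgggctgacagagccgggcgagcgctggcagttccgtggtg
Cdkn1a held 2 matches to the p53 decamer before its upstream start and Trp53 held 1, Btg2 held 1 match to AGGTCA, and neither Gadd45g nor Sesn2 held any of the motifs searched. Of 49 windows available for 34 members, 8 (16.3%) held a p53 decamer, against 7.13% of 32851 windows of all genes, and the 8 belonged to Trp53, Mdm2, Cdkn1a, Bax, Bmf, Ccng1, Gadd45a and Aen. AGGTCA was found in 4 of the 49 windows (8.16%), those of Mdm4, Bcl2l1, Bmf and Btg2, against 14.0% of all windows. CNCCTCAG, a motif described for promoters bound by STRA8, was found in 3 windows (6.12%), of Cdkn1a and Aen, against 6.42% of all windows. The 3 motifs were searched separately and their matches may overlap. A match describes the letters only, and windows of Zmat3, Tnfrsf10b, Bik, Trp63, Pmaip1 and Trp53inp1 were not analysed here.

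The members spanned a wide range of abundance. Per kilobase of gene length, the authors' mean scaled count was highest for Bax at 2754, followed by Mcl1 at 1025, Mdm2 at 999.1, Cdkn1a at 958.1, Ccng1 at 902.2 and Trp53 at 710.1. Bax, the pore-forming effector, was far above its partner Bak1 at 38.94 on the same scale. The lowest were Trp63 at 1.482, Hrk at 1.671, Bcl2 at 3.03 and Trp73 at 3.286, and death receptor Fas stood at 18.32. Changes of scarce and of abundant genes may be understated by the deposited log2 values. For Bcl2 the difference between genotypes at 24 h, -0.76 by those values, is 1.49 in the authors' deposited table, where the sign is opposite. For the abundant Trp53 the same difference is 0.28 by those values and -0.44 in the authors' deposited table.

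The members changed in mixed directions under RA, and no direction was shared by the network as a whole. In WT cultures 2 members were higher and 5 lower with RA than with DMSO at 8 h, against a background of 12% of all genes called (5.32% higher and 6.71% lower). At 24 h 5 were higher and 11 lower in WT, with 37.2% of all genes called (17.9% higher and 19.3% lower), so that the members' share of 40% was close to the background. In KO cultures 3 members were higher and none lower at 8 h (background 6.56%, with 5.3% higher and 1.26% lower), and 6 were higher and 3 lower at 24 h (background 18.6%, with 10.5% higher and 8.1% lower). The median log2 change of the 40 was -0.11 in WT and -0.06 in KO at 24 h, beside medians of 0.0028 and -0.01 over all genes tested. All these calls use limma with adjustment over all 16268 genes. The count at 24 h in KO fell from 9 to 4, 3 and 2 when KO12, KO20 or KO21 was left out, and at 8 h it rose from 3 to 5 without WT17 and 6 without WT23. Fits without a line hold fewer libraries, and the share of all genes called in them is not given, here or below. Such counts therefore do not show whether the members moved more than other genes. With all 42 libraries the counts were 4 in WT at 8 h and 5 in KO at 24 h, beside 5.12% and 8.84% of all genes.

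**Figure D1:**
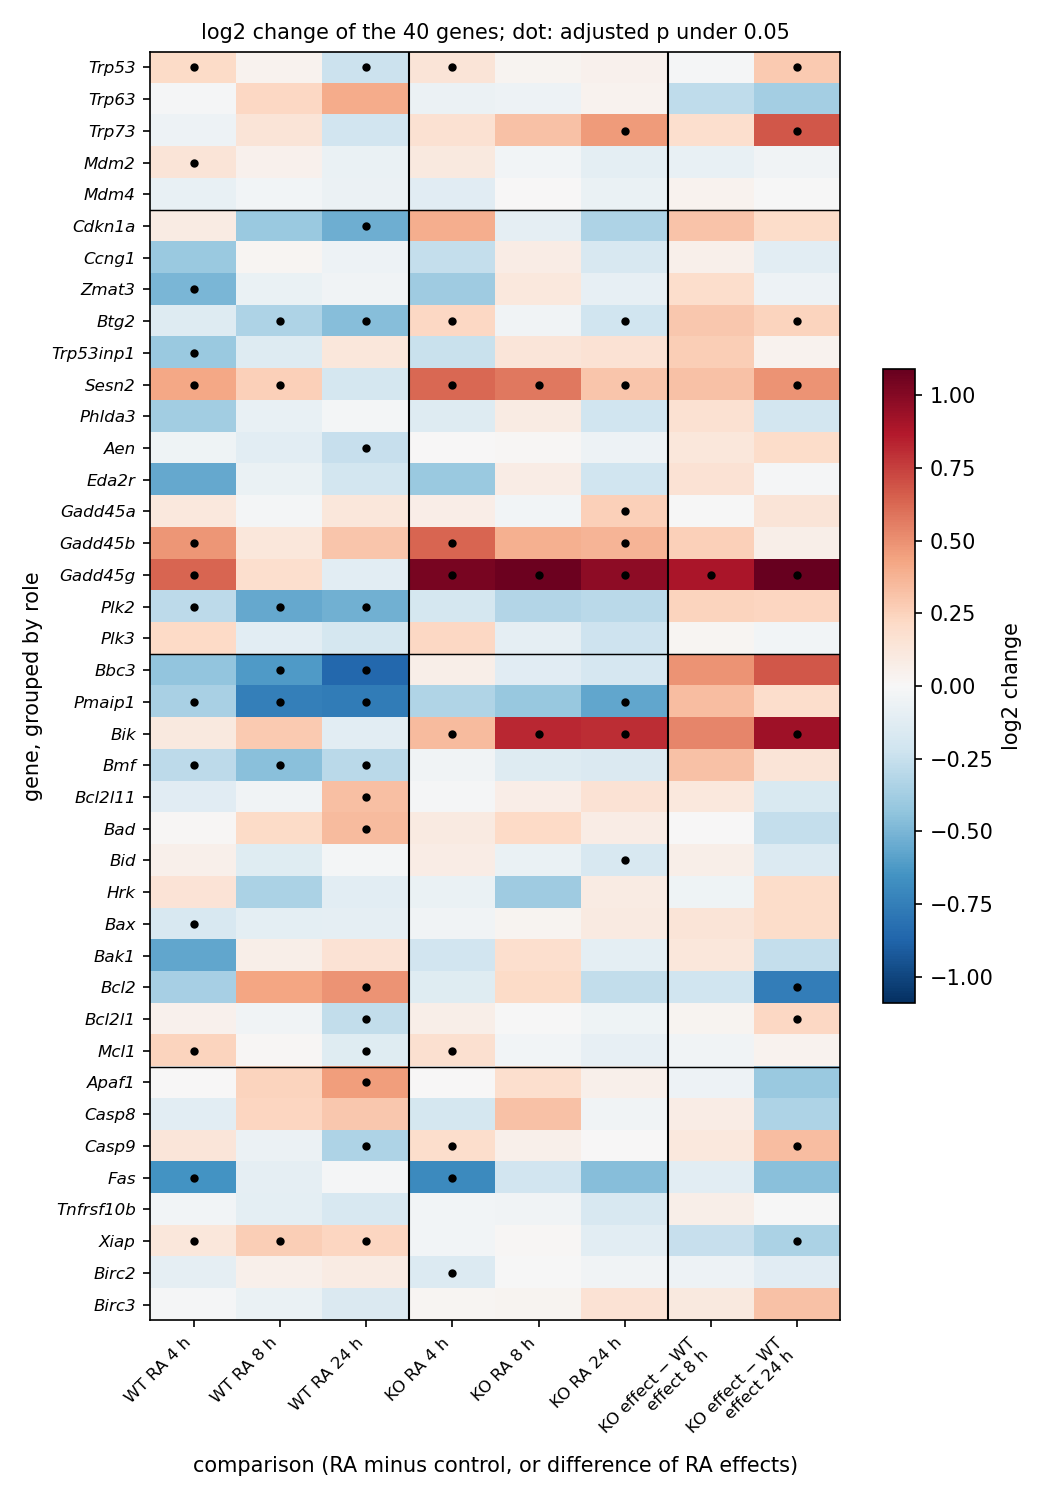
Heat map of the log2 change of each of the 40 genes (rows, grouped as p53 family and MDM genes, growth arrest and stress targets, BCL2 family, and caspases with receptors and inhibitors) in 8 comparisons (columns); red is higher, blue is lower, and a dot marks an adjusted p under 0.05. The KO columns at 8 and 24 h have their strongest red at Gadd45g and Bik, and the WT columns at 8 and 24 h have their strongest blue at Bbc3 and Pmaip1.

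Trp53 (chromosome 11, 69580359 to 69591873, GRCm38.p4), which encodes p53, fell with RA at 24 h in WT and not in KO. In WT17, WT23 and WT25 its log2 values at 24 h were 11.36, 11.50 and 11.35 with DMSO and 11.14, 11.13 and 11.25 with RA, so the groups did not overlap and all 3 lines moved down. The fall was by 0.23 ± 0.05 (SE, n = 3 lines per group; adjusted p = 0.000341), or 1.18-fold. In KO12, KO20 and KO21 the values were 11.40, 11.38 and 11.48 with DMSO and 11.43, 11.42 and 11.56 with RA, a difference of 0.05 ± 0.05 (adjusted p = 0.518). The groups overlapped in KO. The RA effect was higher in KO than in WT by 0.28 ± 0.07 (adjusted p = 0.00369), a call that was kept in all 11 alternatives tried. At 8 h the RA effect was 0.04 ± 0.05 in WT and 0.03 ± 0.05 in KO, and neither passed the test.

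The MDM genes did not pass the test in either genotype at 8 or 24 h. Mdm2 (chromosome 10, 117688888 to 117710758), the ubiquitin ligase of p53 and its best known feedback target, was at 12.33, 12.36 and 12.27 with DMSO and 12.22, 12.32 and 12.20 with RA at 24 h in WT. Its values in KO were 12.32, 12.31 and 12.34 with DMSO and 12.24, 12.18 and 12.22 with RA. The WT groups overlapped and the KO groups did not, and the changes were -0.07 ± 0.04 (adjusted p = 0.187) and -0.11 ± 0.04 (adjusted p = 0.0765). Mdm4 differed by -0.07 ± 0.05 in both genotypes at 24 h.

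Of the p53 relatives, Trp73 (chromosome 4, 154056253 to 154140208), which encodes p73, rose in KO at 24 h from 3.92, 4.06 and 4.06 with DMSO to 4.53, 4.24 and 4.68 with RA. The increase of 0.47 ± 0.15 (adjusted p = 0.0247) lost its call without KO12 (adjusted p = 0.183) or without KO21 (0.154). In WT the values were 4.31, 4.26 and 4.01 with DMSO and 3.92, 4.08 and 3.96 with RA, groups that overlapped (change -0.21 ± 0.15, adjusted p = 0.286). The RA effects differed by 0.68 ± 0.21 (adjusted p = 0.0207), and 4 of the 6 fits that left out a line lost this call (lines KO12, KO21, WT17 and WT23, adjusted p from 0.054 to 0.104). Trp63, which encodes p63, the guardian of oocytes, stayed between 3.23 and 4.03 in all 39 libraries and passed no test.

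Among the BH3-only genes, whose products trigger apoptosis by binding BCL2-type proteins, the members moved in opposite directions. In WT at 24 h Bbc3, Pmaip1 and Bmf fell while Bcl2l11 and Bad rose, and in KO Bik rose while Pmaip1 and Bid fell. Hrk passed no test. Bbc3 (chromosome 7, 16309616 to 16318205), the PUMA gene, was at 7.61, 7.89 and 7.27 with DMSO and 6.69, 6.87 and 6.64 with RA in WT at 24 h. The groups did not overlap, and the fall of 0.86 ± 0.19 (1.81-fold, adjusted p = 0.0006) was already -0.62 ± 0.19 at 8 h (adjusted p = 0.0277, but 0.0704 with all 42 libraries and from 0.0734 to 0.21 without any 1 WT line). In KO the 24 h values were 7.54, 7.28 and 7.76 with DMSO and 7.46, 7.20 and 7.37 with RA, which overlapped (-0.18 ± 0.19, adjusted p = 0.555). The difference between the genotypes in the RA effect was 0.68 ± 0.27 (adjusted p = 0.0722), so a difference was not shown.

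Pmaip1 (chromosome 18, 66458604 to 66465550), the NOXA gene, fell in both genotypes at 24 h. Its WT values were 9.98, 10.60 and 10.21 with DMSO and 9.49, 9.58 and 9.43 with RA. In KO they were 10.52, 10.47 and 10.60 with DMSO and 10.003, 9.87 and 10.01 with RA. In both genotypes every RA library was below every DMSO library, and the falls were by 0.76 ± 0.15 in WT (adjusted p = 0.000131) and by 0.57 ± 0.15 in KO (adjusted p = 0.00576, but 0.0886 without KO20 and 0.0668 without KO21). At 8 h the change was -0.75 ± 0.15 in WT (adjusted p = 0.000626) and -0.41 ± 0.15 in KO (adjusted p = 0.0997), and the RA effects did not differ past the threshold at either time (adjusted p = 0.63 and 0.549).

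Bik (chromosome 15, 83526862 to 83544635), a BH3-only gene of the endoplasmic reticulum, rose with RA in KO. At 24 h its KO values were 7.91, 8.37 and 8.07 with DMSO and 8.80, 9.00 and 8.97 with RA, and at 8 h they were 7.98, 8.27 and 7.94 with DMSO and 8.82, 8.97 and 8.86 with RA. The groups were fully separate at both times, with increases of 0.82 ± 0.13 at 8 h (1.77-fold, adjusted p = 2.98e-05) and 0.81 ± 0.13 at 24 h (1.75-fold, adjusted p = 2.23e-05). In WT the 24 h values were 8.07, 7.94 and 8.17 with DMSO and 7.91, 7.94 and 7.98 with RA, which overlapped (-0.12 ± 0.13, adjusted p = 0.504). The RA effect at 24 h was higher in KO by 0.93 ± 0.18 (adjusted p = 0.000478), and this call was kept in all 11 alternatives. At 8 h the WT change was 0.28 ± 0.13 and the difference between genotypes 0.54 ± 0.18, neither past the threshold (adjusted p = 0.168 and 0.236).

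The other BH3-only genes changed less. Bmf fell in WT by 0.46 ± 0.09 at 8 h and 0.30 ± 0.09 at 24 h (adjusted p = 0.000381 and 0.00753, the latter 0.0977 with all 42 libraries). Bcl2l11, the BIM gene, rose in WT at 24 h by 0.33 ± 0.08 (adjusted p = 0.00147) and Bad rose by 0.34 ± 0.09 (adjusted p = 0.00203). Their KO changes at 24 h were -0.16 ± 0.09, 0.16 ± 0.08 and 0.08 ± 0.09, and for none of these 3 genes did the RA effects differ past the threshold. Bid, which links death receptors to mitochondria, fell in KO by 0.17 ± 0.06 (adjusted p = 0.0306), a call lost without any 1 KO line (adjusted p from 0.137 to 0.161) and with all 42 libraries (0.172).

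The guardians of the BCL2 family were also divided. Bcl2 itself (chromosome 1, 106538178 to 106714274) was of low abundance, at 4.85, 4.52 and 4.72 with DMSO and 5.05, 5.34 and 5.16 with RA in WT at 24 h, groups that did not overlap. It rose by 0.49 ± 0.18 (adjusted p = 0.0309, but 0.224 without WT23 and 0.0899 without WT25). In KO its values were 4.69, 4.69 and 5.28 with DMSO and 4.75, 4.31 and 4.80 with RA, which overlapped (-0.27 ± 0.18, adjusted p = 0.325). The RA effect was lower in KO by a log2 difference of -0.76 ± 0.25 (adjusted p = 0.0324), which was lost with all 42 libraries (0.0526) and without KO20, KO21, WT23 or WT25 (0.0682 to 0.138). Bcl2l1, the BCL-XL gene, fell in WT at 24 h by 0.27 ± 0.04 (adjusted p = 9.88e-06), with an RA effect that was higher in KO by 0.22 ± 0.06 (adjusted p = 0.0082, but 0.122 with all 42 libraries and 0.0534 without KO20). Mcl1 fell in WT by 0.13 ± 0.04 (adjusted p = 0.0114, but 0.23 with all 42 libraries, 0.0686 without WT17 and 0.147 without WT25). The effectors Bax and Bak1 passed no test at 8 or 24 h, with Bax changes of -0.10 ± 0.05 in WT and 0.10 ± 0.05 in KO at 24 h and Bak1 changes of 0.16 ± 0.36 and -0.10 ± 0.36.

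In the caspase arm, Apaf1 rose and Casp9 fell in WT at 24 h. Apaf1, the scaffold of the apoptosome, was higher by 0.46 ± 0.11 (adjusted p = 0.00144), and Casp9, its initiator caspase, was lower (log2 change -0.34 ± 0.06, adjusted p = 8.73e-05). In KO the changes were 0.05 ± 0.11 and 0.0012 ± 0.06. The RA effects differed for Casp9, by 0.34 ± 0.09 (adjusted p = 0.00698, and 0.0524 without KO21), and not past the threshold for Apaf1 (-0.41 ± 0.16, adjusted p = 0.0634). Casp8, the caspase of death receptors, and the receptor genes Fas and Tnfrsf10b passed no test at 8 or 24 h, with a Fas change of -0.46 ± 0.19 in KO at 24 h (adjusted p = 0.092).

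Xiap, the most direct caspase inhibitor among the IAP genes, rose with RA in WT by 0.26 ± 0.05 at 8 h (adjusted p = 0.000529) and 0.23 ± 0.05 at 24 h (adjusted p = 0.000683). In KO it changed by 0.01 ± 0.05 and -0.12 ± 0.05, and the RA effect at 24 h was lower in KO (-0.35 ± 0.07, adjusted p = 0.000923). These 3 calls were lost with all 42 libraries (adjusted p = 0.27, 0.179 and 0.233), with the same log2 changes, and were kept in the other 10 alternatives. Xiap was at 10.67 in the library labelled WT25 DMSO 4 h, against 11.40 or more in the 39 libraries of the tests. Birc2 and Birc3, which act mainly in TNF receptor signalling, passed no test of RA against DMSO at 8 or 24 h.

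Among targets of p53 in growth arrest, Cdkn1a and Btg2 fell in WT. Cdkn1a (chromosome 17, 29090979 to 29100722), which encodes the cyclin-dependent kinase inhibitor p21, was at 11.41, 11.25 and 10.84 with DMSO and 10.80, 10.86 and 10.23 with RA at 24 h in WT. All 3 lines were lower with RA, although the ranges overlapped through WT25, and the fall was by 0.54 ± 0.17 (1.45-fold, adjusted p = 0.0116, but 0.0892 without WT17). In KO its values were 11.04, 10.90 and 11.29 with DMSO and 10.80, 10.64 and 10.78 with RA. The KO groups did not overlap, but the change of -0.34 ± 0.17 did not pass the threshold (adjusted p = 0.165), and the difference between genotypes was 0.20 ± 0.23 (adjusted p = 0.597). Btg2, an antiproliferative gene, fell in WT by 0.34 ± 0.06 at 8 h and 0.47 ± 0.06 at 24 h (adjusted p = 0.000241 and 4.71e-07), and in KO by 0.22 ± 0.06 at 24 h (adjusted p = 0.00987, but 0.129 with all 42 libraries, 0.103 without KO20 and 0.107 without KO21). Its RA effects differed by 0.24 ± 0.09 (adjusted p = 0.0433), which was lost in 9 of 11 alternatives. Aen, a nuclease induced by p53, fell in WT by 0.26 ± 0.07 at 24 h (adjusted p = 0.00305). Ccng1, Zmat3, Trp53inp1, Phlda3 and Eda2r, which are among the most regular p53 targets in mouse cells, passed no test at 8 or 24 h.

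Sesn2 (chromosome 4, 132492032 to 132510501), a stress-induced inhibitor of mTORC1 signalling, was higher with RA in KO at both times. Its KO values were 10.65, 10.48 and 10.55 with DMSO and 11.16, 11.22 and 11.02 with RA at 8 h, and 10.69, 10.59 and 10.58 with DMSO and 10.93, 10.87 and 10.97 with RA at 24 h. Every RA library was above every DMSO library, with increases of 0.58 ± 0.09 (adjusted p = 1.9e-05) and 0.30 ± 0.09 (adjusted p = 0.015, but 0.073, 0.103 and 0.186 without KO12, KO20 or KO21). In WT it rose by 0.26 ± 0.09 at 8 h (adjusted p = 0.0487), in 2 of 3 lines and with overlapping groups. This call was kept in 3 of 11 alternatives. It was kept without WT23, with a log2 change of 0.41, but lost without WT17 (adjusted p = 0.331) and without WT25 (0.243). At 24 h the WT values were 10.66, 10.74 and 10.36 with DMSO and 10.43, 10.43 and 10.34 with RA (-0.19 ± 0.09, adjusted p = 0.0928). The RA effect at 24 h was higher in KO by 0.49 ± 0.12 (adjusted p = 0.00524, and 0.0527 without KO21).

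The GADD45 genes, which encode small stress sensors that act on MAP kinase and cell cycle proteins, include the member with the largest rise in KO, Gadd45g. This gene (chromosome 13, 51846678 to 51848468) was at 6.96, 6.96 and 6.81 with DMSO and 8.17, 7.68 and 8.10 with RA at 8 h in KO, and at 7.06, 6.84 and 7.05 with DMSO and 7.87, 7.90 and 8.12 with RA at 24 h. The groups lay far apart, with increases of 1.07 ± 0.14 (2.10-fold, adjusted p = 8.9e-07) and 0.98 ± 0.14 (1.97-fold, adjusted p = 2.61e-06). In WT the 8 h values were 7.32, 7.05 and 7.21 with DMSO and 7.57, 7.21 and 7.36 with RA, and the 24 h values 7.27, 7.47 and 7.11 with DMSO and 7.16, 7.23 and 7.13 with RA. Both pairs overlapped (changes of 0.18 ± 0.14 and -0.11 ± 0.14, adjusted p = 0.46 and 0.553). The RA effect at 24 h was higher in KO by 1.09 ± 0.19 (adjusted p = 0.000143), a call kept in all 11 alternatives. The difference at 8 h was 0.89 ± 0.19 (adjusted p = 0.0261), and was lost with all 42 libraries (0.489), with quantile normalization, and in each fit without KO12, KO21, WT17, WT23 or WT25 (0.0554 to 0.231). Gadd45a and Gadd45b rose in KO at 24 h by 0.26 ± 0.08 and 0.37 ± 0.13 (adjusted p = 0.0141 and 0.0405), calls that were lost with all 42 libraries (0.18 and 0.0966) and without any 1 KO line (0.0705 to 0.192), that of Gadd45b also without WT25 (0.069), and their WT changes were 0.12 ± 0.08 and 0.31 ± 0.13.

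Plk2 (chromosome 13, 110395044 to 110400844), a Polo-like kinase gene induced by p53, was at 10.39, 10.63 and 10.37 with DMSO and 10.02, 9.97 and 9.83 with RA at 24 h in WT. Its KO values were 10.18, 10.03 and 10.11 with DMSO and 9.86, 9.79 and 9.79 with RA. The groups did not overlap in either genotype. In WT the fall was by 0.56 ± 0.11 at 8 h and 0.53 ± 0.11 at 24 h (adjusted p = 0.00109 and 0.000565), and in KO the changes of -0.32 ± 0.11 and -0.29 ± 0.11 did not pass the threshold (adjusted p = 0.114 and 0.077). The genotypes' RA effects differed by 0.23 ± 0.16 at 24 h (adjusted p = 0.335). Plk3 passed no test.

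**Figure D2:**
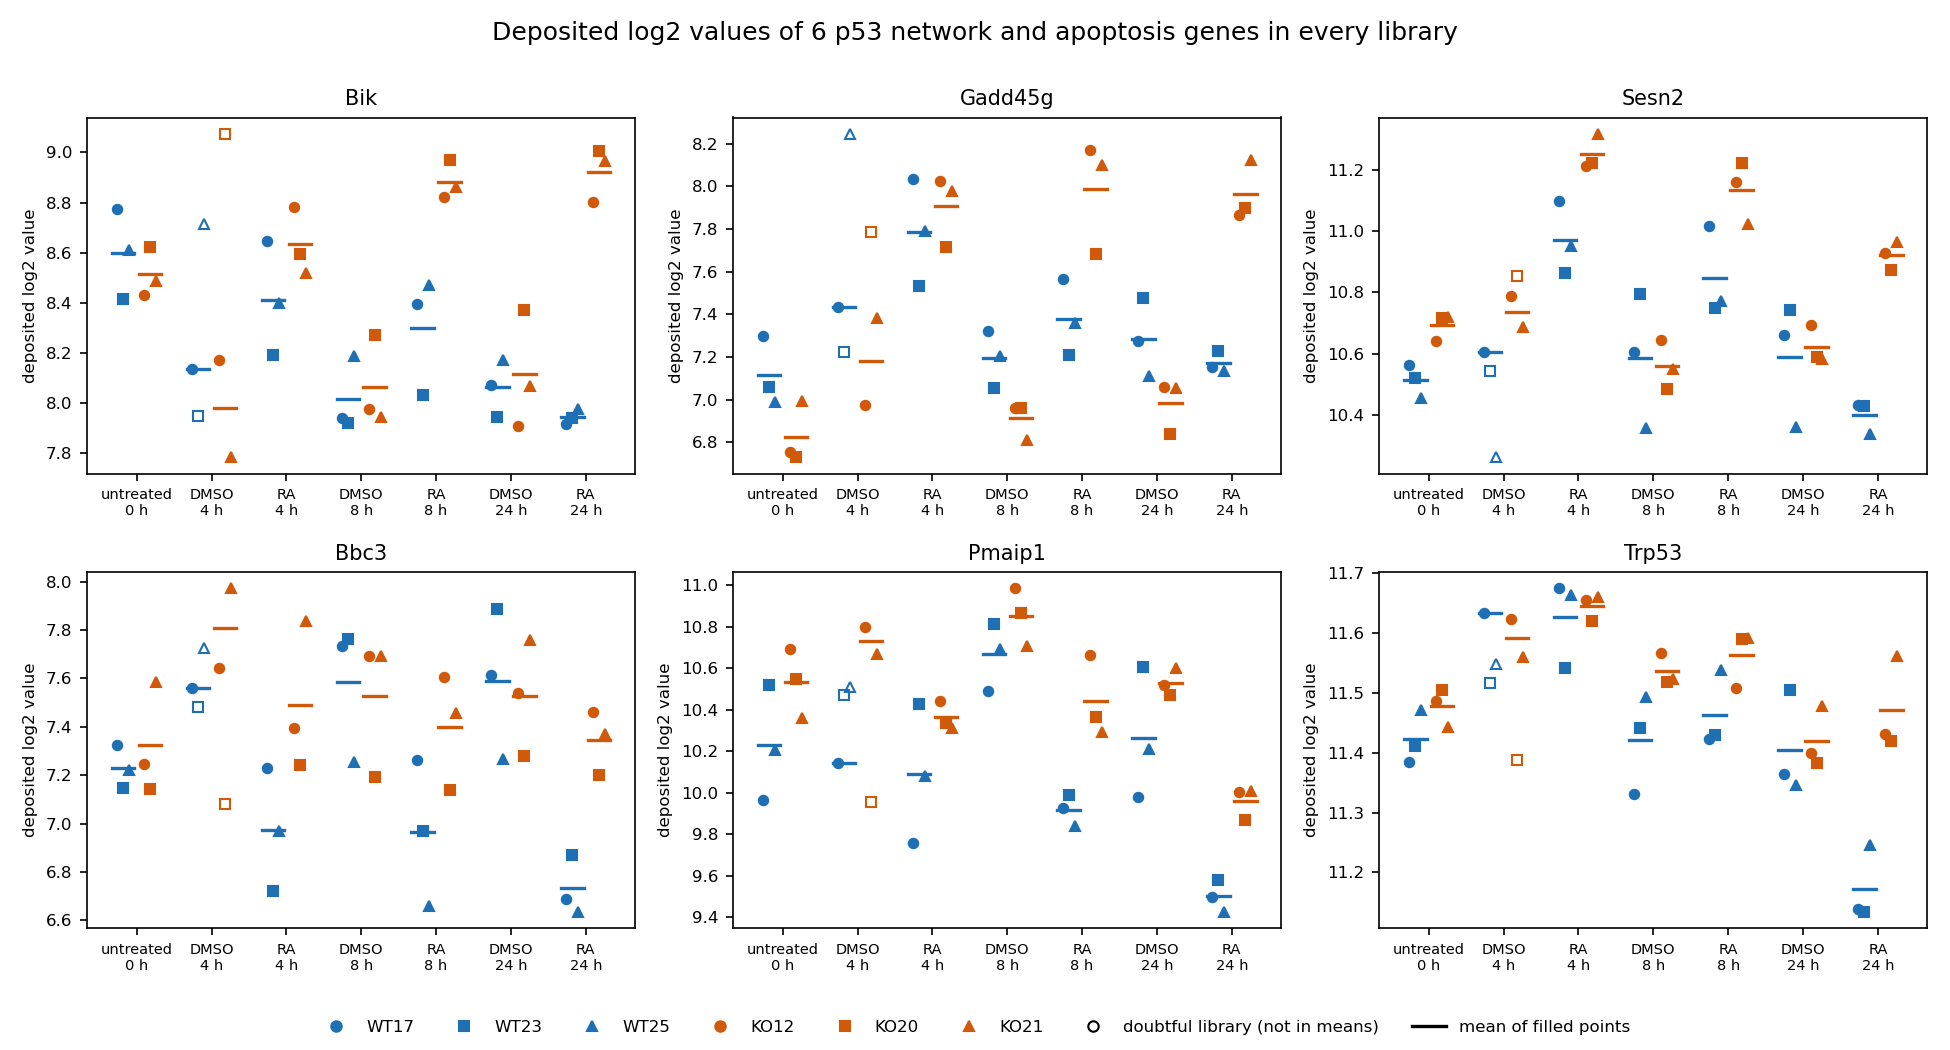
Deposited log2 values (vertical axis) of Bik, Gadd45g, Sesn2, Bbc3, Pmaip1 and Trp53 in every library across the 7 conditions (horizontal axis), WT in blue and Stra8-KO in orange, with 1 symbol per culture line; bars are means and open symbols are the 3 libraries in doubt. With RA at 24 h the KO points of Bik lie between 8.80 and 9.00 and those of WT between 7.91 and 7.98, and Bbc3 and Trp53 are lowest in WT at that time.

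The RA effect at 24 h differed between the genotypes for 10 members, higher in KO for 8 and lower for 2, against a background of 19.8% of all genes called (11.8% higher and 7.99% lower). The 8 were Trp53, Trp73, Bcl2l1, Bik, Casp9, Gadd45g, Sesn2 and Btg2, and the 2 were Bcl2 and Xiap. The count was 5 without KO21 and 6 with all 42 libraries, where 8.45% of all genes were called. The calls of Trp53, Bik and Gadd45g were kept in all 11 alternatives. For Gadd45g, Bik and Sesn2 the difference came with a rise in KO and a WT change that missed the threshold. For Trp53, Bcl2l1 and Casp9 it came with a fall in WT and KO changes of 0.05, -0.04 and 0.0012. At 8 h only Gadd45g was called, higher in KO, with a background of 0.455% of all genes (0.443% higher and 0.0123% lower).

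**Figure D3:**
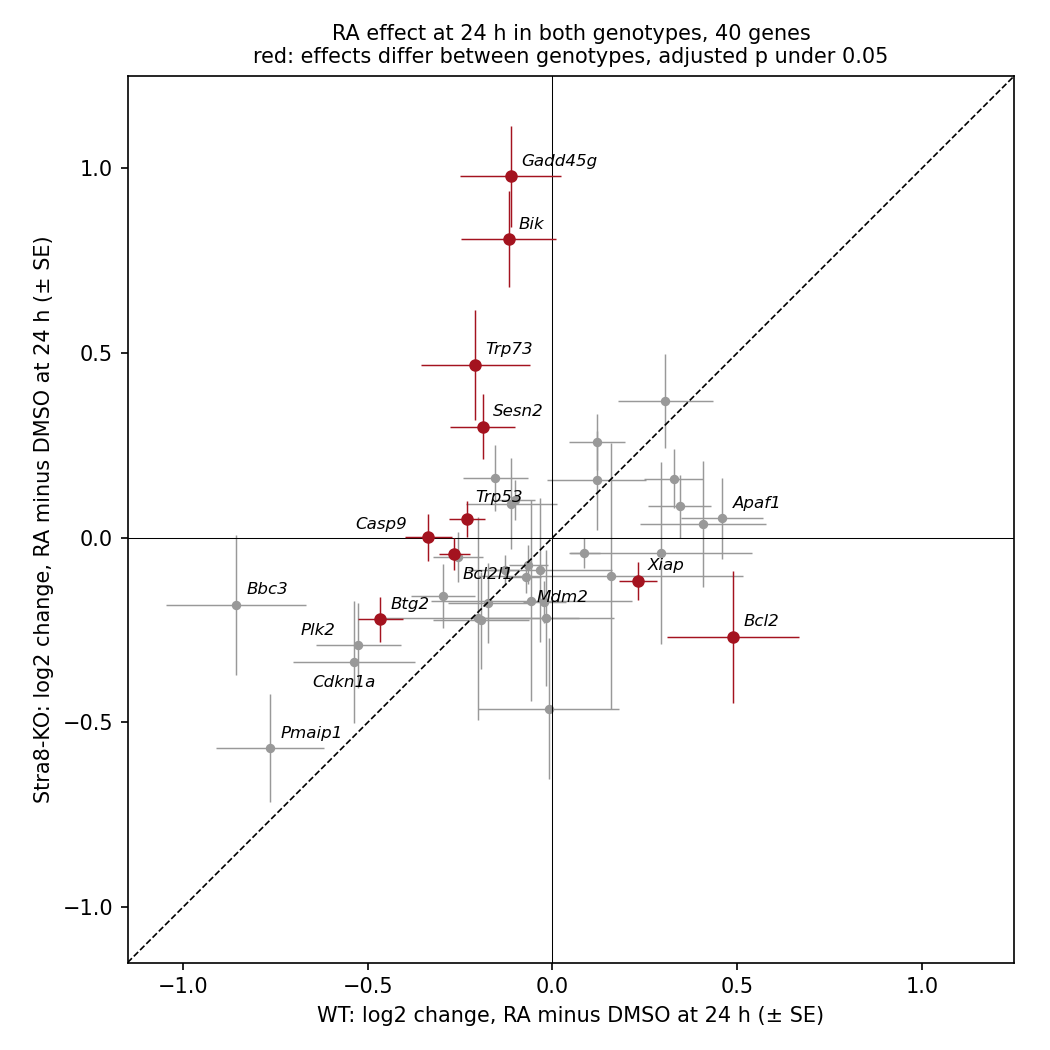
Log2 change with RA at 24 h in WT (horizontal axis) against Stra8-KO (vertical axis) for the 40 genes, with SE bars; the dashed line marks equal changes and red points are the 10 genes whose changes differed between genotypes. Gadd45g, Bik, Trp73 and Sesn2 lie well above the line, Bcl2 and Xiap below it, and Pmaip1 close to it.

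Compared directly at 24 h of RA, 13 members were higher and 6 lower in KO than in WT (background 39.2%, with 21.4% higher and 17.8% lower). Bik was higher by 0.98 ± 0.13 (adjusted p = 4.9e-07), Gadd45g by 0.79 ± 0.14, Bbc3 by 0.61 ± 0.19, Sesn2 by 0.52 ± 0.09 and Pmaip1 by 0.46 ± 0.15. Those lower in KO were Bcl2 (-0.56 ± 0.18), Apaf1 (-0.46 ± 0.11), Xiap (-0.27 ± 0.05), Bad, Bcl2l11 and Birc2. Leaving out 1 line ended the calls of Bbc3 (KO12, adjusted p = 0.0609), Pmaip1 (KO21 or WT25, 0.0597 and 0.0804) and Bcl2 (KO20, 0.129), and some fits without a line also ended those of Bad, Bcl2l11 and Aen. With all 42 libraries 12 members were called, beside 25.6% of all genes. The direct comparisons share the RA libraries at 24 h with the RA effects above. In untreated cultures no member differed between the genotypes by limma (background 0.0123%, with 0.00615% higher and 0.00615% lower). At an unadjusted p under 0.05 were 5 members and 967 of the 16268 genes. The 5 were Pmaip1, Hrk, Sesn2 and Plk3 with higher values and Gadd45g with a lower value in KO.

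Between 8 and 24 h the WT response to RA changed for 4 members, 1 upward and 3 downward (background 7.39%, with 3.1% upward and 4.28% downward). The RA effect of Sesn2 fell by 0.45 ± 0.12 (adjusted p = 0.0227), that of Trp53 by 0.27 ± 0.07 (adjusted p = 0.0124) and that of Bcl2l1 by 0.23 ± 0.06 (adjusted p = 0.016), and that of Bcl2l11 rose by 0.37 ± 0.11 (adjusted p = 0.0406). The count was 0 with all 42 libraries (1.59% of all genes) or without WT17, and 2 without WT23 or WT25. In KO no RA effect of a member changed between these times by limma (background 0.4%, with 0.32% upward and 0.0799% downward). There 4 members and 1497 of the 16268 genes had an unadjusted p under 0.05.

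Time in culture without RA was compared in the same way. Between untreated cultures and 24 h of DMSO no member passed the test in WT (background 0.0861%, with 0.0553% higher and 0.0307% lower) or KO (background 0%). In WT 1 was called without WT23. At an unadjusted p under 0.05 were 9 members and 1952 of the 16268 genes in WT, and 7 members and 1651 genes in KO. The lowest p belonged to Bik in WT, at 8.77, 8.42 and 8.61 untreated and 8.07, 7.94 and 8.17 with DMSO at 24 h, groups that did not overlap (-0.54 ± 0.13, adjusted p = 0.0751). In KO it was at 8.43, 8.62 and 8.48 untreated, between the DMSO and the RA values at 24 h. The change of Plk2 over the same time was 0.40 ± 0.11 in WT (adjusted p = 0.132).

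At 4 h the DMSO libraries in doubt leave 1 WT and 2 KO controls, so RA at 4 h was also compared with the mean of the untreated and the DMSO 8 h libraries, which serve as well in the comparisons above. On that scale 7 members were higher and 7 lower in WT (background 20.3%, with 11.5% higher and 8.8% lower), and 8 higher and 2 lower in KO (background 15.7%, with 9.48% higher and 6.25% lower). Higher in both genotypes were Gadd45g (0.63 ± 0.12 in WT and 1.04 ± 0.12 in KO), Sesn2 (0.42 ± 0.08 and 0.63 ± 0.08), Gadd45b (0.48 ± 0.11 and 0.63 ± 0.11), Mcl1 (0.24 ± 0.03 and 0.18 ± 0.03) and Trp53 (0.20 ± 0.04 and 0.14 ± 0.04). Fas was lower in both, by log2 changes of -0.65 ± 0.17 and -0.69 ± 0.17, and the others lower in WT were Zmat3, Trp53inp1, Pmaip1, Bmf, Plk2 and Bax. Mdm2 and Xiap were also higher in WT (0.14 ± 0.04 and 0.13 ± 0.04), and in KO Bik, Casp9 and Btg2 were higher and Birc2 was lower. Many of these calls were lost when 1 line was left out. Without WT23 the change of Xiap was 0.02 (adjusted p = 0.649) and that of Bax -0.11 (0.0603), and without KO12 that of Bik was 0.23 (0.326). The Casp9 call was lost without any 1 KO line (0.0735 to 0.127), and that of Trp53 in KO likewise (0.0972 to 0.187). In WT the calls of Pmaip1 and Zmat3 were kept in 4 of 11 alternatives and those of Xiap and Plk2 in 3. These WT calls were also lost in each fit without a KO line, where their log2 changes stayed the same. The calls kept in all 11 were those of Gadd45g, Sesn2 and Mcl1 in WT and of Gadd45g, Sesn2 and Gadd45b in KO. The WT count was 7 without WT17 and 9 without WT25, and the KO count 6 without KO20 or KO21 and 17 without WT23. With all 42 libraries both counts were 6, beside 9.41% of all genes in WT and 7.46% in KO.

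Low values at 4 h were also found with DMSO. Zmat3, an RNA-binding target of p53, was at 9.44 in WT17 with DMSO at 4 h, against 9.77 to 9.93 untreated and 9.56 to 9.96 with DMSO at 8 h in WT. In KO12 and KO21 it was at 9.46 and 9.56 with DMSO at 4 h, against 9.65 to 10.05 untreated and 9.86 to 9.95 with DMSO at 8 h in KO. With RA at 4 h it was at 9.33, 9.55 and 9.09 in WT, so RA and DMSO libraries were both low. Set against DMSO at 4 h, the changes of Zmat3 were -0.12 ± 0.28 in WT and -0.01 ± 0.22 in KO, and those of Trp53, Mdm2 and Mcl1 were between -0.01 and 0.05. The changes of Fas against that control were -0.22 in WT and -0.25 ± 0.21 in KO. Fas was low with DMSO at 8 h too, at 4.20 to 4.79 in WT and 4.42 to 4.76 in KO. Untreated it was at 5.13 to 5.62 in WT and 4.99 to 5.55 in KO, values that enter the mean used as control above. With that control and 39 libraries no member was called in WT, where WT17 is the lone control and is assumed to vary like the other groups (background 1.41%). In KO 4 were called (background 2.76%): Gadd45g higher by 0.73 ± 0.15, Bik by 0.65 ± 0.14, Gadd45b by 0.56 ± 0.14 and Sesn2 by 0.51 ± 0.10 (adjusted p = 0.00349, 0.00554, 0.0207 and 0.00109). With all 42 libraries Sesn2 was called in both genotypes (0.50 ± 0.09 in WT and 0.48 ± 0.09 in KO), together with Xiap (0.43) and Bax (-0.35) in WT, at backgrounds of 3% and 0.46%.

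**Figure D4:**
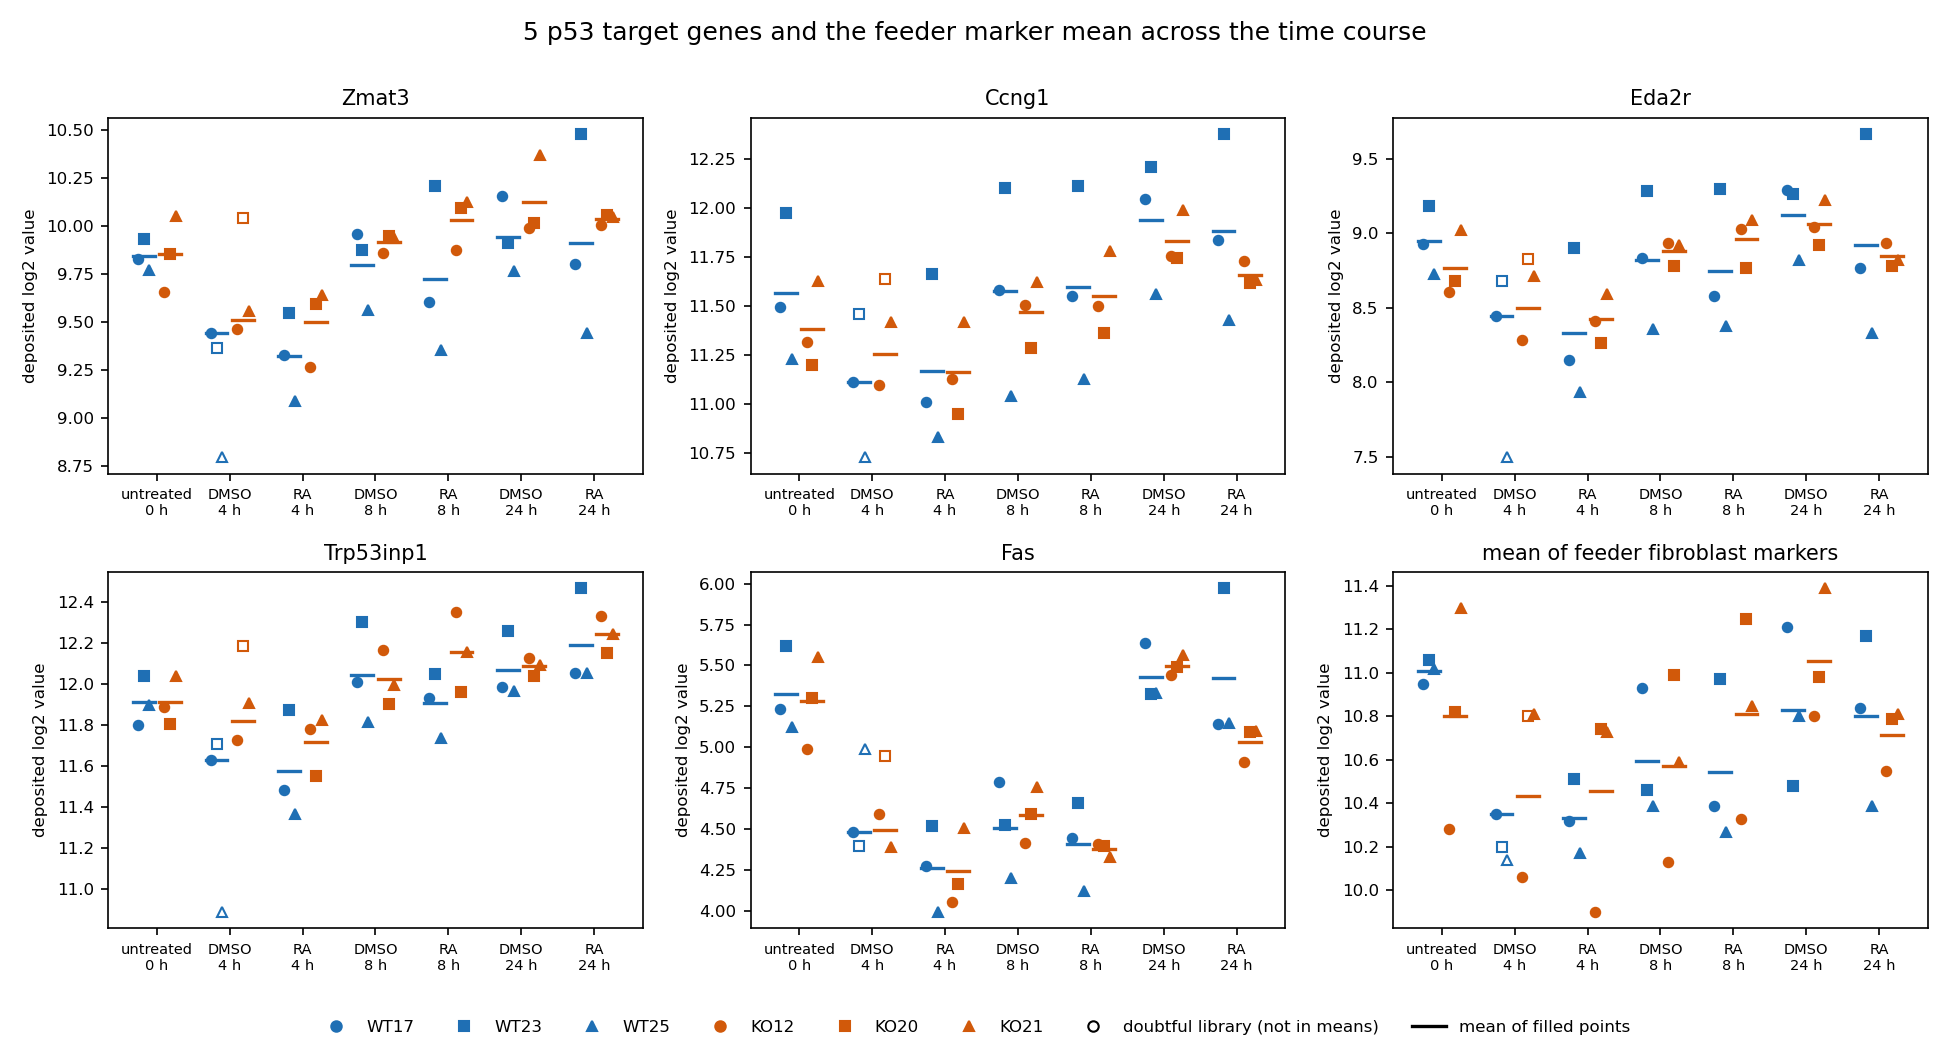
Deposited log2 values (vertical axis) of Zmat3, Ccng1, Eda2r, Trp53inp1 and Fas and the mean log2 value of the 11 tested feeder fibroblast markers, in every library across the 7 conditions (horizontal axis), with symbols as before (open for the 3 libraries in doubt, bars for means of the others). At 4 h the means are low with DMSO as with RA, those of Fas are low at 8 h too, and the feeder mean is 10.33 with RA in WT at 4 h against 11.01 untreated.

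Feeder marker levels differed between times as well. The mean log2 value of the 11 tested of 12 feeder fibroblast markers was 10.95 to 11.06 in untreated WT, 10.17 to 10.51 with RA at 4 h and 10.35 in the WT17 DMSO library at 4 h, and in KO it was 10.28 to 11.30 untreated and 9.90 to 10.74 with RA at 4 h. At 24 h it was 10.48 to 11.21 with DMSO and 10.39 to 11.17 with RA in WT, and 10.80 to 11.39 and 10.55 to 10.81 in KO. Between RA and DMSO at 24 h, 2 of the 11 were called lower in WT (18.2%) and 1 in KO (9.09%), beside 37.2% and 18.6% of all genes called. In such bulk libraries fewer cells of a type and less RNA per cell cannot be told apart, and the part of the feeder cells in the values of Zmat3, Ccng1, Eda2r, Trp53inp1, Phlda3 and Fas was not tested. Of the 10 spermatogonial markers, 6 fell and 1 rose in WT with RA at 24 h and 2 rose and 2 fell in KO. These are 70% and 40% of the list, beside 37.2% and 18.6% of all genes. The mean of their log2 values in WT at 24 h was 12.27 to 12.31 with DMSO and 11.59 to 11.64 with RA. Their summed level in WT at 24 h was 16.56 to 16.67 with DMSO and 16.35 to 16.48 with RA. Their part in the falls of Bbc3, Cdkn1a or Trp53 was not tested.

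Some markers of other testis cells were detected, at summed levels below those of the spermatogonial list. The macrophage list ranged widely among KO libraries, from 8.91 to 11.40 untreated. Csf1r and Adgre1 of 6 macrophage markers did not pass the filter, and the summed level of the list was 8.53 to 8.97 with DMSO and 7.42 to 7.67 with RA in WT at 24 h and 8.53 to 10.89 and 8.27 to 10.65 in KO. Of 5 endothelial markers 3 fell in WT (60%) and 2 rose in KO (40%) at 24 h, beside 37.2% and 18.6% of all genes called. Their summed levels at 24 h were 8.65 to 8.90 with DMSO and 8.19 to 8.28 with RA in WT and 8.60 to 8.91 and 9.23 to 9.46 in KO. Amh and Fshr of 7 Sertoli markers and Cyp17a1, Insl3 and Lhcgr of 6 Leydig markers did not pass the filter, and summed levels at 24 h were 8.96 to 9.85 and 6.50 to 7.79 over both genotypes and treatments. Whether such cells were present in the cultures, and their part in the members' values, was not tested.

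Some members differed repeatedly between culture lines. Over the 6 conditions other than DMSO at 4 h, Ccng1 had a mean of 12.07 in WT23 and 11.20 in WT25, with WT23 highest in all 6, and Eda2r had 9.27 in WT23 and 8.42 in WT25, with WT23 highest in 5. Of the 40 members, 8 had the same WT line highest in all 6 conditions, and in 6 of these (Pmaip1, Apaf1, Tnfrsf10b, Ccng1, Aen and Trp53inp1) it was WT23. In KO 3 members did so, and the widest difference was that of Bak1, at 6.80 in KO21 and 6.02 in KO12. The median range between lines was 0.18 in WT and 0.15 in KO. The mean feeder marker level by line was 10.78 in WT23, 10.77 in WT17, 10.51 in WT25, 10.33 in KO12, 10.93 in KO20 and 10.95 in KO21.

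Other genes of the pathway, from lists compiled by function, moved in both directions too. Of 47 tested among 50 other p53 targets, 8 rose and 13 fell with RA at 24 h in WT, and 2 rose and 4 fell in KO. These are 44.7% and 12.8% of the list, beside 37.2% and 18.6% of all genes. Perp, a desmosomal target of p53 and p63, rose in WT by 1.75 ± 0.19 (adjusted p = 1.12e-08), while Zfp365, Notch1 and Pcbp4 fell by 0.90 ± 0.08, 0.73 ± 0.08 and 0.72 ± 0.11. In KO Notch1 fell by 0.46 ± 0.08 and Pcbp4 by 0.39 ± 0.11, and Tap1 and Pmm1 rose by 0.42 ± 0.14 and 0.37 ± 0.06. The 20 regulators of p53 had 4 rises and 6 falls in WT, with Usp10, a deubiquitinase of p53, lower by a log2 change of -0.44 ± 0.08, Pml higher by 0.43 ± 0.14, Rpl5 at -0.27 ± 0.04 and Sirt1 at 0.25 ± 0.06. In KO 1 rose (Pml, 0.52 ± 0.14) and 3 fell (Ep300, Crebbp and Rpl5, at -0.28, -0.14 and -0.14). The shares called were 50% in WT and 20% in KO, against the same 37.2% and 18.6%. The 30 other genes of the apoptosis machinery had 8 rises and 5 falls in WT, among them falls in Parp1 (-0.54), a DNA damage sensor, and in Cflar (-0.48) and a rise in Bok (0.49). In KO 2 rose (Bok at 0.51 and Casp6 at 0.28) and 2 fell (Tnfrsf1a at -0.40 and Parp1 at -0.24), and the shares called were 43.3% and 13.3%. The median changes in WT were -0.0086, -0.02 and 0.03 for the 3 lists, beside 0.0028 over all genes.

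In the authors' deposited table, at an adjusted p under 0.05, the members called with RA were 2 higher and 5 lower in WT at 8 h, 5 higher and 11 lower in WT at 24 h, 4 higher in KO at 8 h, and 6 higher and 3 lower in KO at 24 h. All genes with a value were called there at 13%, 30.7%, 6.29% and 17.5%. The additional KO gene at 8 h in the authors' deposited table was Gadd45b, with a log2 fold change of 0.55. The authors' deposited table gives log2 fold changes in KO of 1.47 and 1.30 for Gadd45g and 1.10 and 1.07 for Bik at 8 and 24 h, larger than those above, and -1.10 for Bbc3 in WT at 24 h. For the difference between genotypes the authors' deposited table has 2 members lower at 8 h (Gadd45g and Btg2, background 0.755%) and 3 higher and 7 lower at 24 h (background 20.3%), with a sign opposite to that used here, and it includes Bbc3 and Apaf1 at adjusted p of 0.0118 and 0.000152. Trp73 and Btg2, called here, did not pass in the authors' deposited table at 24 h (adjusted p = 0.056 and 0.0604).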

How the data were processed

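Poly(A) RNA of 42 libraries (14 groups of 3 culture lines) was sequenced from a stranded mRNA kit, with RNA of all samples isolated on the same day and RIN of at least 9.2, per the labels' protocols. The labels list 43 samples, because WT17 at 24 h of RA is listed as 2 samples and has a single column. STAR 2.5.1b, DESeq and GRCm38.p4 are named in the submitters' processing notes; which counter assigned reads, and whether by strand, is not given in the sources used here. Values of genes that overlap others or have near-identical copies are therefore uncertain. The deposited values per library were taken as log2 expression that the authors had scaled across libraries, judged from the values, since no header names their scale. The authors' mean signal per gene, a deposited mean of scaled counts, was used only for levels per kilobase, and the authors' fold changes and p-values only where their table is named.

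Genes reaching log2 of 10 in 3 or more libraries (16268 of 46983) were fitted by limma (version 3.58.1, under R 4.3.3), with 1 mean per group, trend and robust options, and 39 libraries, so that all groups share 1 estimate of the spread. P-values were adjusted by Benjamini-Hochberg over all genes tested in each comparison, with a threshold of 0.05; the fit was tested on simulated data. "Kept" and "lost" refer to that threshold. Errors are SE of the model. Alternatives were all 42 libraries, a replicate block, no filter, quantile normalization, no trend or robust option, and leaving out each of the 6 lines. Members and gene lists were chosen with earlier results of these data known. All 40 members are named, and values per library are given for Trp53, Mdm2, Cdkn1a and members past the threshold at 8 or 24 h, or in the 24 h difference between genotypes, with a log2 change of at least 0.5. Of the other p53 and apoptosis lists, up to 4 genes past the threshold with the largest change at 24 h are named per genotype. A gene that this rule names is not reported here.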

Additional observations from a re-analysis of the deposited data

Results flagged for a closer look

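The RA effect differed between KO and WT, by a test of the difference itself (limma, 39 libraries), for 1 member at 8 h and 10 members at 24 h. At 8 h this was Gadd45g, with an RA effect higher in KO by 0.89 (adjusted p = 0.0261). At 24 h the effect was higher in KO for Gadd45g by 1.09 (adjusted p = 0.000143), Bik by 0.93 (0.000478), Trp73 by 0.68 (0.0207), Sesn2 by 0.49 (0.00524), Casp9 by 0.34 (0.00698), Trp53 by 0.28 (0.00369), Btg2 by 0.24 (0.0433) and Bcl2l1 by 0.22 (0.0082). It was lower in KO for Bcl2, by a log2 difference of -0.76 (0.0324), and for Xiap, by -0.35 (0.000923). Among all genes 19.8% had such a call at 24 h, and 0.455% at 8 h. Groups of 3 libraries are too small for a test of single outlying values.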

How the results depend on the processing

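Over the 14 comparisons 93 values of members passed the threshold. Each was recomputed under 11 alternatives, and of these 1023 values 840 stayed past the threshold, 183 no longer passed it and 0 changed direction. With all 42 libraries 38 of the 93 calls were lost. Without the filter on low values 13 calls were lost, with quantile normalization 11 and without the trend and robust options 5.

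With all 42 libraries the number of members called became 4 (from 7) for WT at 8 h, 5 (from 9) for KO at 24 h, 0 (from 1) and 6 (from 10) for the difference between genotypes at 8 and 24 h, 6 for WT at 4 h (from 14) and 6 for KO at 4 h (from 10), 12 (from 19) for the genotypes compared directly with RA at 24 h, and 0 (from 4) for the WT effect at 24 h against 8 h. The share of all genes called fell too with all 42 libraries, to 5.12% for WT at 8 h and 8.84% for KO at 24 h. It was 0.00614% and 8.45% for the difference between genotypes at 8 and 24 h, and 9.41% and 7.46% for WT and KO at 4 h. It was 25.6% for the genotypes compared directly and 1.59% for the WT effect at 24 h against 8 h. Quantile normalization left 0 members for the difference between genotypes at 8 h. Leaving out 1 line at a time gave 3 to 6 members for KO at 8 h, 2 to 13 for KO at 24 h, 0 to 1 and 5 to 9 for the difference between genotypes at 8 and 24 h, 7 to 14 for WT and 6 to 17 for KO at 4 h, 0 to 1 for DMSO at 24 h against untreated in WT, and 0 to 4 for the WT effect at 24 h against 8 h. The share of all genes called in the fits without a line is not given here. The cause of these moves was not tested, though fits without a line hold fewer libraries.

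The labels do not say what a line name stands for, so the replicate block is given here only, and the main fit does not pair libraries by line. The median correlation of deviations within a line was 0.264 (WT23) to 0.569 (KO12). Not every such correlation was above 0.1 (lowest 0.0129 in WT17 and -0.17 in WT23). As a hint from the data, 38 of 38 libraries correlated best on average with their own line. With the replicate block all 93 calls were kept, and the counts rose to 14 for WT and 9 for KO at 8 h, 16 for KO at 24 h, 4 and 16 for the difference between genotypes at 8 and 24 h, 22 for WT and 20 for KO at 4 h, 5 in each genotype for DMSO at 24 h against untreated, and 7 for the WT effect at 24 h against 8 h. The share of all genes called rose too under the replicate block, to 21.2% and 12% at 8 h, 29.8% for KO at 24 h, 3.81% and 32% for the difference between genotypes, 32.1% and 26.9% at 4 h, 3.9% in WT and 1.3% in KO for DMSO at 24 h against untreated, and 17.2% for the WT effect at 24 h against 8 h.

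Depth is unknown, how far changes are understated is unknown, and 3 lines per group limit what small changes can be seen.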

Other observations

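The library labelled KO20 DMSO 4 h held member values close to those of KO20 at 24 h of RA. Its Bik value was 9.07, against 9.00 in that library and 8.17 and 7.78 in KO12 and KO21 with DMSO at 4 h. Pmaip1 was 9.95 there, against 9.87 with RA at 24 h and 10.80 and 10.67 in the other KO libraries with DMSO at 4 h. In the library labelled WT25 DMSO 4 h, Gadd45g was 8.25, the highest value of this gene in all 42 libraries, and Eda2r was 7.496, the lowest value of that gene.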
